A study of Mus musculus with 21 samples.

Results

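The 35 genes described here are endothelial cell genes, some of which other cells also make. They were chosen by symbol as a named group from the 20872 genes measured in mouse aortic valves. All 35 were listed and all 35 passed the filter of a mean of 1 FPKM or more, which left 14966 genes to test. FPKM counts the fragments of a gene per kilobase and per sequencing depth, so levels can be compared between genes. Whole aortic valves were measured by RNA-seq in 21 libraries of 5 groups, and every group, controls included, was of the second generation of mice lacking Terc, the RNA component of telomerase. N1het mice carry 1 intact and 1 disrupted copy of Notch1 (N1+/-), and WT mice carry both copies (N1+/+). N1het stenosis XCT790 (n = 3) and N1het stenosis (n = 3) had stenotic valves, whereas N1het healthy XCT790 (n = 5), N1het healthy (n = 6) and WT (n = 4) had healthy valves. XCT790, an inverse agonist of the nuclear receptor ERRα, was injected into the peritoneum each day at 5 mg/kg for 4 weeks from 4 weeks of age, and the groups without it in their name received solvent. These groups follow the sample titles. In 6 libraries another field of the labels contradicts the title: it gives solvent for 3 of the N1het healthy XCT790 libraries and XCT790 for all 3 N1het stenosis libraries, so each result on XCT790 depends on which field is right. By that field all 6 stenotic libraries had XCT790, and of the healthy N1het libraries only N1het healthy XCT790 4 and 5 had it. Each comparison of stenotic with healthy valves made here would then mix stenosis with XCT790. Nothing in the labels says whether libraries of a group are from different animals, and p-values therefore reflect the spread between samples, which may be technical.

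Endothelial cells line blood vessels, the heart chambers and both faces of a valve leaflet. They hold together through junction proteins such as VE-cadherin, receive growth signals through VEGF and angiopoietin receptors, and sense flow, which in these cells raises KLF2 and KLF4 and with them nitric oxide synthase and thrombomodulin. NOTCH1 acts in the valve endothelium, and loss of a copy of it is a known cause of valve disease in humans. Endothelin-1, the product of Edn1, is made mainly by endothelial cells and constricts vessels, and flow is known to lower its expression.

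The recovered depth was 8.42 to 27.3 megareads per library with a median of 13.7, and 6 libraries above 16 megareads formed a deeper class. Both stenotic groups together held 1 library of that class. Notch1 averaged 26.8 FPKM in N1het stenosis XCT790, 24.9 in N1het stenosis, 32.4 in N1het healthy XCT790, 35.6 in N1het healthy and 33.9 in WT valves. The ranges of these groups overlap, so the level of Notch1 does not check the genotype label. Other cells of a dissected valve varied between libraries as well. The sum over 12 heart muscle markers was 169 to 2169 FPKM in N1het stenosis XCT790, 91.7 to 4769 in N1het stenosis, 74.7 to 2139 in N1het healthy XCT790, 148 to 5269 in N1het healthy and 38.1 to 3416 in WT. These ranges overlap. In whole tissue, fewer cells of a type and less RNA per cell cannot be told apart.

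Promoter sequence was available from the RefSeq table (build GRCm38.p6) for 20 of the 35 genes, and it was searched because Erg and Fli1, both in the group, encode ETS factors, which bind sites built around GGAA. The ETS motif AGGAAG, read on both strands over the 250 bases before the start, was in 9 of the 20 promoters (45.0%), against 29.2% of all 27025 promoters. The KLF motif CCACCC was in 9 of 20 (45.0%), against 27.7% of all. The GATA motif AGATAA was in 2 of 20 (10.0%), against 10.3% of all. The AP-1 motif TGANTCA was in 0 of 20, against 6.87% of all. No match to 1 of the 4 motifs contains a match to another. The promoters of Flt1, a VEGF receptor, and Emcn, a sialomucin of the cell surface, are shown as examples. Each holds 2 ETS matches, which stand in capitals. Those of Eng and Grrp1 also held 2, and that of Egfl7 held 3. Flt1 held 1 KLF match too, which is not marked. The promoter of Edn1 is shown because the comparison of valve states turns on this gene. It held a match to none of the 4 motifs. The promoters shown lie at chr5:147726012-147726261 (minus strand), chr3:137340828-137341077 (plus strand) and chr13:42301226-42301475 (plus strand). Each is written 5′ to 3′ and ends at the base before the start.
Flt1: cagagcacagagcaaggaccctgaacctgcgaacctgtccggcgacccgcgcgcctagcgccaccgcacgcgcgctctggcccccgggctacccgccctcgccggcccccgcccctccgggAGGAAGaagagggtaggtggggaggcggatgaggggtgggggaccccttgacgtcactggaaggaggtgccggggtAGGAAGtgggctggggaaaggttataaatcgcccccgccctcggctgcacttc
Emcn: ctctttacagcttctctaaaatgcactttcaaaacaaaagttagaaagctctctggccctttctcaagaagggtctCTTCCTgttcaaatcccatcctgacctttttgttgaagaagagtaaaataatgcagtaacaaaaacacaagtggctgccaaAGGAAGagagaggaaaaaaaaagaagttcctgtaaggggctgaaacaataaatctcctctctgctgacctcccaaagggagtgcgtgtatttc
Edn1: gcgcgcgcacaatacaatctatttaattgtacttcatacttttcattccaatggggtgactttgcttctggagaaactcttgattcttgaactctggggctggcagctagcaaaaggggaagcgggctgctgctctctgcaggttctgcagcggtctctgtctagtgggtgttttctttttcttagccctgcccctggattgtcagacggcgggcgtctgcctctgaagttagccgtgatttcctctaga
The ETS matches in Flt1 begin 129 and 53 bases before the start. Those in Emcn begin 174 bases before it, on the other strand (CTTCCT), and 93 bases before it. A match describes letters and is no evidence of binding, and the absence of a match says only that these letters are not in this window.

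The genes spanned a wide range of levels. Averaged over the 21 libraries, the highest were Eng, a co-receptor of the TGF-β family, with 198.9 FPKM, Cd34, a sialomucin also made by fibroblast-like cells, with 178.4, Pecam1, an adhesion receptor of endothelial cell contacts, platelets and leukocytes, with 140.0, Thbd, the thrombin receptor thrombomodulin, with 119.2, and Klf4 with 112.8. The lowest were Aplnr, the apelin receptor, with 1.10 FPKM, Robo4, an endothelial receptor of the roundabout family, with 4.59, the little characterised Grrp1 with 5.92, Gpihbp1, which carries lipoprotein lipase to the capillary surface, with 7.07, and Edn1 with 7.204. Pecam1 and Cdh5, which encodes VE-cadherin, were above 0 in every library, Pecam1 between 51.4 and 301.7 FPKM and Cdh5 between 15.9 and 124.2 FPKM. So the defining genes of endothelium were present in every library.

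Several members had libraries at 0 reads. Gpihbp1 was at 0 in 7 libraries, Aplnr in 6, Grrp1 in 2, and Edn1 and Cldn5, a tight junction claudin, in 1 each. Where Gpihbp1 was at 0, a count of 3 reads would have been 0.152 to 0.415 FPKM, which limits what these libraries could have missed; for Edn1 in N1het healthy 3 that limit was 0.124 FPKM. Reads are amplified and carry no molecular identifiers, so such limits cover counting error only. Exons of 7 members overlap those of another gene in the GENCODE vM21 annotation, among them Edn1, Nos3 and Prox1 with antisense transcripts. Whether counting used the strand is not stated, and reads of such pairs cannot be told apart.

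**Figure D1:**
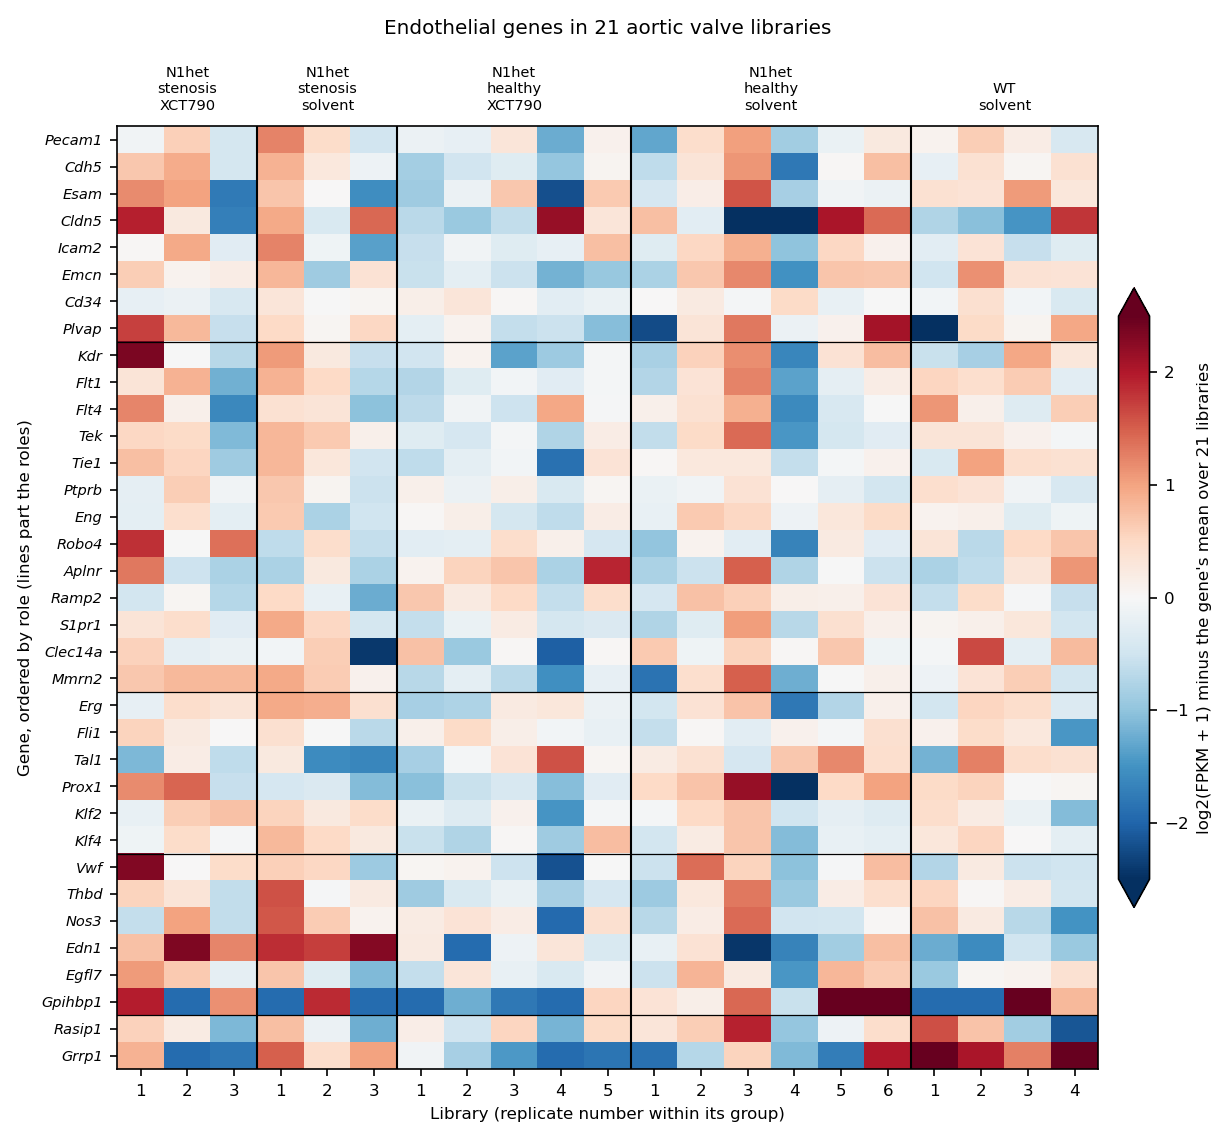
Levels of the 35 endothelial genes (rows, ordered by role) in the 21 libraries (columns, grouped), as log2(FPKM + 1) minus the gene's mean over all libraries, red for higher and blue for lower. Columns for N1het healthy 4 and N1het healthy XCT790 4 are mostly blue, that for N1het healthy 3 mostly red, and the row of Edn1 is red in the 6 stenotic libraries.

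The colour map of genes by library shows many of these genes high or low together from library to library within groups. The median deviation of the 35 genes from their means was lowest in N1het healthy 4 (log2 difference of -0.97, with 6 genes above their own mean), N1het healthy XCT790 4 (-0.79, 6 genes) and N1het stenosis 3 (-0.50, 13 genes). It was highest in N1het healthy 3 (0.89, 29 genes), N1het stenosis 1 (0.76, 30 genes) and N1het stenosis XCT790 1 (0.57, 25 genes). Low and high libraries therefore stood within the same group. The standard deviation of this median between libraries within groups was 0.49 on the log2 scale.

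Among themselves the genes differed in how much they varied within groups. The residual standard deviation was largest for Gpihbp1 (1.78 on the log2 scale), Cldn5 (1.61), Plvap, the diaphragm protein of fenestrae and caveolae (1.31), Grrp1 (1.14) and Rasip1, a partner of small GTPases in lumen formation (1.07). It was smallest for Cd34 (0.24), Ptprb, the endothelial phosphatase that acts on Tek (0.37), and Eng (0.41). Cldn5 had 23.3, 6.51 and 0.940 FPKM in N1het stenosis XCT790 and 11.2, 3.83 and 15.97 FPKM in N1het stenosis. In healthy N1het valves it had 2.96, 2.34, 3.11, 27.6 and 6.75 FPKM after XCT790, against a lowest value of 0, a median of 6.91 and a highest value of 24.8 FPKM after solvent. Its range in every group spanned much of the range of the others, and in WT valves it had 2.73, 2.07, 1.27 and 20.7 FPKM.

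Co-variation was measured against Pecam1 over the 21 libraries, on log2(FPKM + 1), with Pearson's r and Spearman's rho and 100000 permutations each, two-sided. Of 34 relations, 22 passed for both measures after Benjamini-Hochberg adjustment over the 34 (permutation test, adjusted p under 0.05), all 22 of them positive. The lowest of the 22 had r = 0.49, and the lowest rho among them was 0.48; both marks were reached by 22 of the 34 genes (64.7%), against 2.67% of all 14965 genes tested other than Pecam1, the 34 included, whose median r with Pecam1 was 0.02. The highest were S1pr1, the sphingosine-1-phosphate receptor (r = 0.82, rho = 0.78), Flt1 (r = 0.81, rho = 0.87), Mmrn2, a matrix protein of the endothelial surface (r = 0.81, rho = 0.68), Tek, the angiopoietin receptor (r = 0.81, rho = 0.81), and Nos3, the endothelial nitric oxide synthase (r = 0.80, rho = 0.74). Their permutation p-values, adjusted, were 0.00017 or less for r and 0.00288 or less for rho. Libraries share depth and tissue composition, so these values describe the libraries. Without the 2 libraries farthest from the median of Pecam1, N1het healthy 1 and N1het healthy XCT790 4, r was above 0.5 for 17 of the 22. Within the 15 libraries outside the deeper class r was positive for all 22 (0.37 to 0.89), and within the 6 deeper libraries likewise (0.17 to 0.98). The 22 were picked by their relation over these same libraries, so their r in parts of them is no separate check on depth.

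Among the 12 genes that did not pass, Cldn5 (r = -0.24), Tal1, a basic helix-loop-helix factor of blood and endothelial precursors (r = -0.13), Gpihbp1 (r = 0.02), Robo4 (r = 0.08) and Edn1 (r = 0.09) lay closest to or below 0. In N1het healthy 3, whose endothelial genes were highest of all libraries, Edn1 was at 0 reads.

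**Figure D2:**
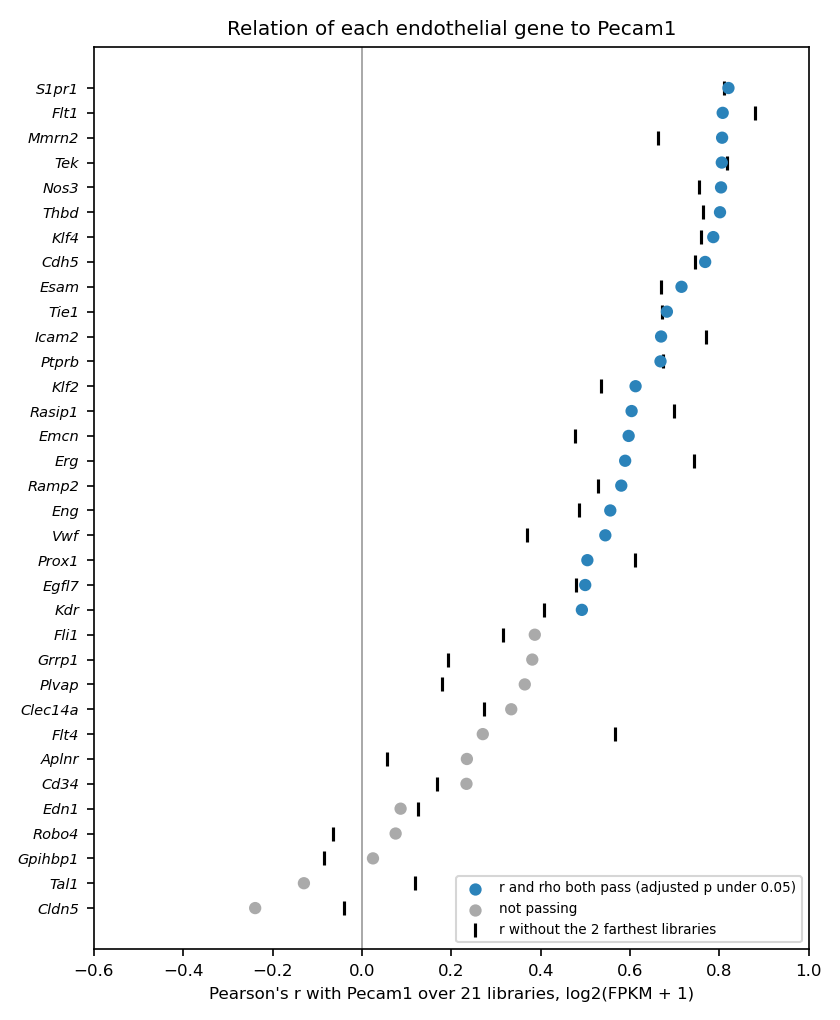
Pearson's r of each of the other 34 endothelial genes with Pecam1 over 21 libraries on log2(FPKM + 1), with points coloured by whether r and rho both pass the permutation test after adjustment, and ticks for r without the 2 libraries farthest from the median of Pecam1. S1pr1 is at the top with r = 0.82 and Cldn5 at the bottom with r = -0.24.

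The comparison of stenotic with healthy valves was made in N1het mice, averaged over both agents. Of the 35 genes Edn1 alone was called at an adjusted p under 0.05 (limma, Benjamini-Hochberg over all 14966 genes), and 0.374% of all genes were called. Edn1 had 7.88, 26.1 and 11.6 FPKM in N1het stenosis XCT790 and 18.2, 16.9 and 25.3 FPKM in N1het stenosis. In healthy valves it had 5.30, 0.417, 3.94, 5.596 and 3.12 FPKM in N1het healthy XCT790, a lowest value of 0, a median of 2.83 and a highest value of 8.03 FPKM in N1het healthy, and 1.26, 0.793, 2.78 and 1.83 FPKM in WT. All 6 stenotic libraries lay above every healthy library but N1het healthy 6, whose 8.03 FPKM exceeded the lowest stenotic library. The means were 15.2 ± 9.63 FPKM in N1het stenosis XCT790 and 20.1 ± 4.52 in N1het stenosis (SD, n = 3 each), against 3.67 ± 2.08 in N1het healthy XCT790 (n = 5), 3.38 ± 3.13 in N1het healthy (n = 6) and 1.67 ± 0.854 in WT (n = 4). Edn1 rose in stenotic valves, with a log2 difference of 2.22 ± 0.43 (SE, 95% interval 1.32 to 3.12, limma adjusted p = 0.0212).

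The call of Edn1 rested on particular libraries and settings. The adjusted p was 0.0554 without N1het stenosis 1, 0.0822 without N1het stenosis 3, 0.0647 without N1het stenosis XCT790 2 and 0.0624 without N1het stenosis XCT790 3 (limma), while the log2 difference stayed between 1.99 and 2.39 whichever library was left out. Within the 15 libraries outside the deeper class it was 1.77 (adjusted p = 0.354). All 10 macrophage markers tested had a positive log2 difference, of which 1 was called, Lyz2, the lysozyme of macrophages (1.61 ± 0.32, limma adjusted p = 0.0249). All 5 platelet markers tested had a positive one as well, of which 1 was called, Gp9, a subunit of a platelet receptor for von Willebrand factor (2.53 ± 0.54, adjusted p = 0.0378). The macrophage markers were above 0 in every library, and their sum was 1658 to 6880 FPKM in N1het stenosis XCT790 and 3216 to 5662 in N1het stenosis, against 1062 to 3139 in N1het healthy XCT790, 861 to 1983 in N1het healthy and 1126 to 1913 in WT. With their level as a covariate, chosen after the data had been seen, Edn1 had a log2 difference of 1.80 (limma adjusted p = 0.742), and in that fit 0 genes of the whole table were called. The sum of the 5 listed platelet markers was 310 to 680 FPKM in N1het stenosis XCT790 and 387 to 555 in N1het stenosis, against 92.0 to 351 in N1het healthy XCT790, 63.2 to 436 in N1het healthy and 215 to 438 in WT. The part of macrophages and platelets in the difference of Edn1 was not tested beyond this covariate.

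Within each agent Edn1 did not pass over all genes. N1het stenosis minus N1het healthy gave a log2 difference of 2.63 ± 0.60 (limma adjusted p = 0.132), and N1het stenosis XCT790 minus N1het healthy XCT790 gave 1.81 ± 0.62 (adjusted p = 0.872). In both pairs the stenotic libraries lay above all healthy ones; groups without overlap were found for 5.46% of all genes in the solvent pair and 4.03% in the XCT790 pair. N1het stenosis minus WT gave 3.02 ± 0.65 (limma adjusted p = 0.144). The difference between the agents in the effect of stenosis was -0.82 ± 0.87 (95% interval -2.62 to 0.98, limma adjusted p = 1.00), so a difference between agents was not detectable.

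**Figure D3:**
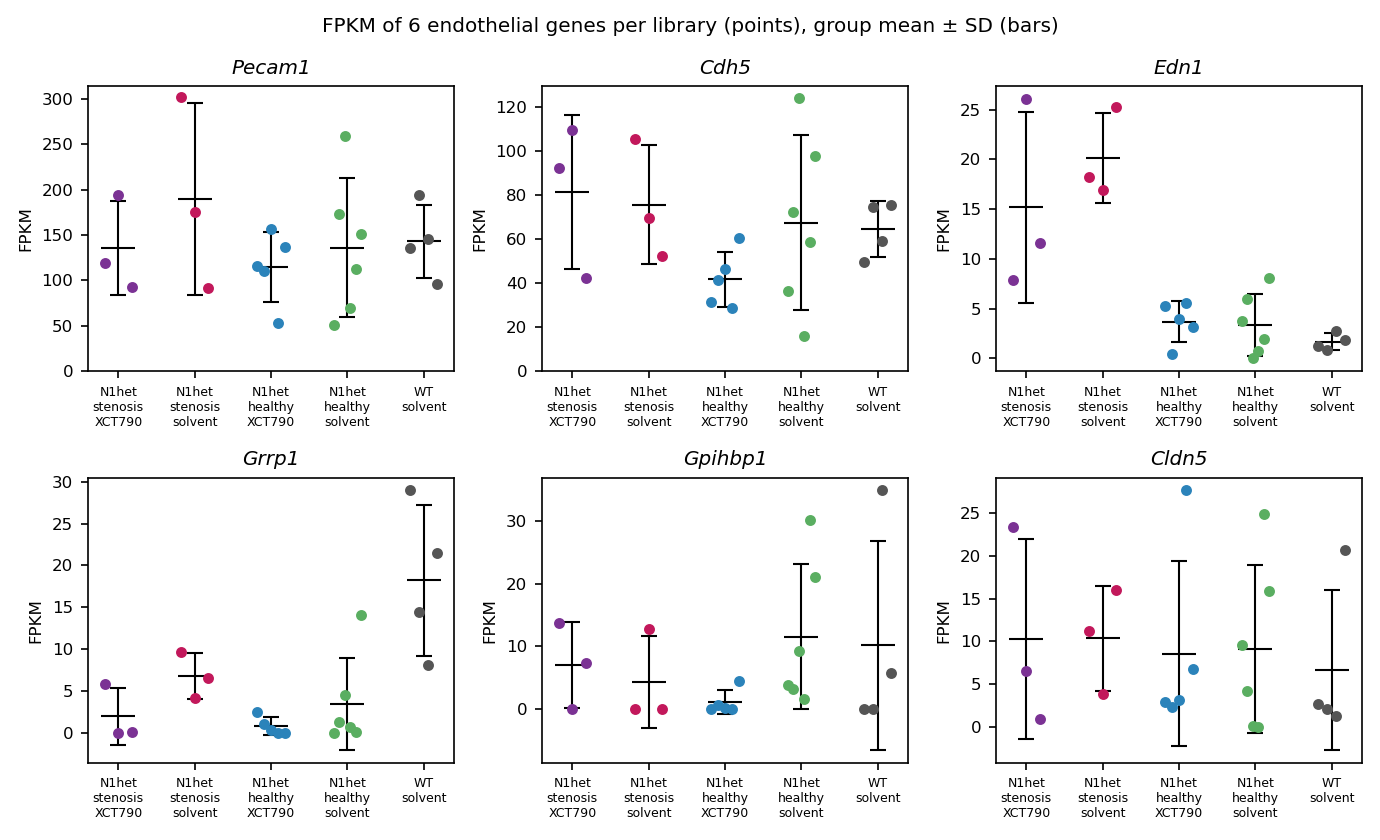
FPKM of 6 endothelial genes in each library (points) with the group mean and SD (bars), for the 5 groups on the horizontal axis. For Edn1 the 6 stenotic libraries lie between 7.88 and 26.1 FPKM and the WT libraries between 0.793 and 2.78; Pecam1 and Cdh5 overlap between all groups.

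The other 34 genes were not called between stenotic and healthy N1het valves. Over all 35 the median log2 difference was 0.40, with 26 higher and 9 lower, against a median of 0.00 over all genes tested, of which 50.1% were higher. Within the 15 libraries outside the deeper class it was 0.08. An unadjusted p under 0.05 was reached by 7 of the 35, against 11.5% of all genes.

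By role, 7 of the 8 junction and adhesion genes were on the higher side in stenotic valves, and their median log2 difference was 0.43. Cdh5 had 92.3, 109.5 and 42.3 FPKM in N1het stenosis XCT790 and 105.4, 69.5 and 52.2 FPKM in N1het stenosis, against 31.4, 41.2, 46.4, 28.95 and 60.5 FPKM in N1het healthy XCT790 and a lowest value of 15.9, a median of 65.6 and a highest value of 124.2 FPKM in N1het healthy. The stenotic libraries lay inside the range of N1het healthy, and the log2 difference of Cdh5 was 0.63 ± 0.33 (limma adjusted p = 0.474). Pecam1 overlapped between all groups as well, with a log2 difference of 0.38 ± 0.32 (95% interval -0.28 to 1.04, adjusted p = 0.698).

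Of the 13 receptors and their partners, 8 were on the higher side and 5 on the lower, with a median of 0.30. Mmrn2 had 29.3, 32.6 and 32.7 FPKM in N1het stenosis XCT790 and 35.5, 28.5 and 19.5 FPKM in N1het stenosis. It had 10.8, 15.2, 11.03, 5.59 and 15.7 FPKM in N1het healthy XCT790 and a lowest value of 4.33, a median of 19.0 and a highest value of 52.6 FPKM in N1het healthy. The groups given XCT790 did not overlap, those given solvent did, and the log2 difference averaged over agents was 1.08 ± 0.36 (limma adjusted p = 0.220). Ramp2, which makes the calcitonin receptor-like receptor respond to adrenomedullin, had a log2 difference of -0.59 ± 0.25 (adjusted p = 0.347).

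Of the 6 transcription factors, 5 were on the higher side. Erg, which maintains endothelial identity, had 39.2, 61.8 and 57.4 FPKM in N1het stenosis XCT790 and 89.1, 86.6 and 60.6 FPKM in N1het stenosis, against 25.2, 26.1, 53.3, 55.8 and 41.3 FPKM in N1het healthy XCT790 and a lowest value of 12.6, a median of 41.1 and a highest value of 75.7 FPKM in N1het healthy. The groups overlapped for both agents, the log2 difference was 0.74 ± 0.30 (limma adjusted p = 0.319), or 0.29 when the 6 deeper libraries were left out. The flow-regulated Klf2 and Klf4 had log2 differences of 0.59 ± 0.26 and 0.54 ± 0.25 (adjusted p = 0.365 and 0.407). Tal1 was on the lower side, with 3.27, 9.56 and 4.99 FPKM in N1het stenosis XCT790 and 9.91, 2.12 and 2.00 FPKM in N1het stenosis, against a median of 8.52 in N1het healthy XCT790 and 11.3 in N1het healthy. Its groups overlapped and its log2 difference was -1.07 ± 0.39 (limma adjusted p = 0.275). Tal1 is also made in red cell precursors. The 5 red cell markers tested were all on the lower side, with a median log2 difference of -0.64 and 0 called. The platelet markers tested, of a different blood lineage, were all on the higher side. The part of these cells in the difference of Tal1 was not tested.

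**Figure D4:**
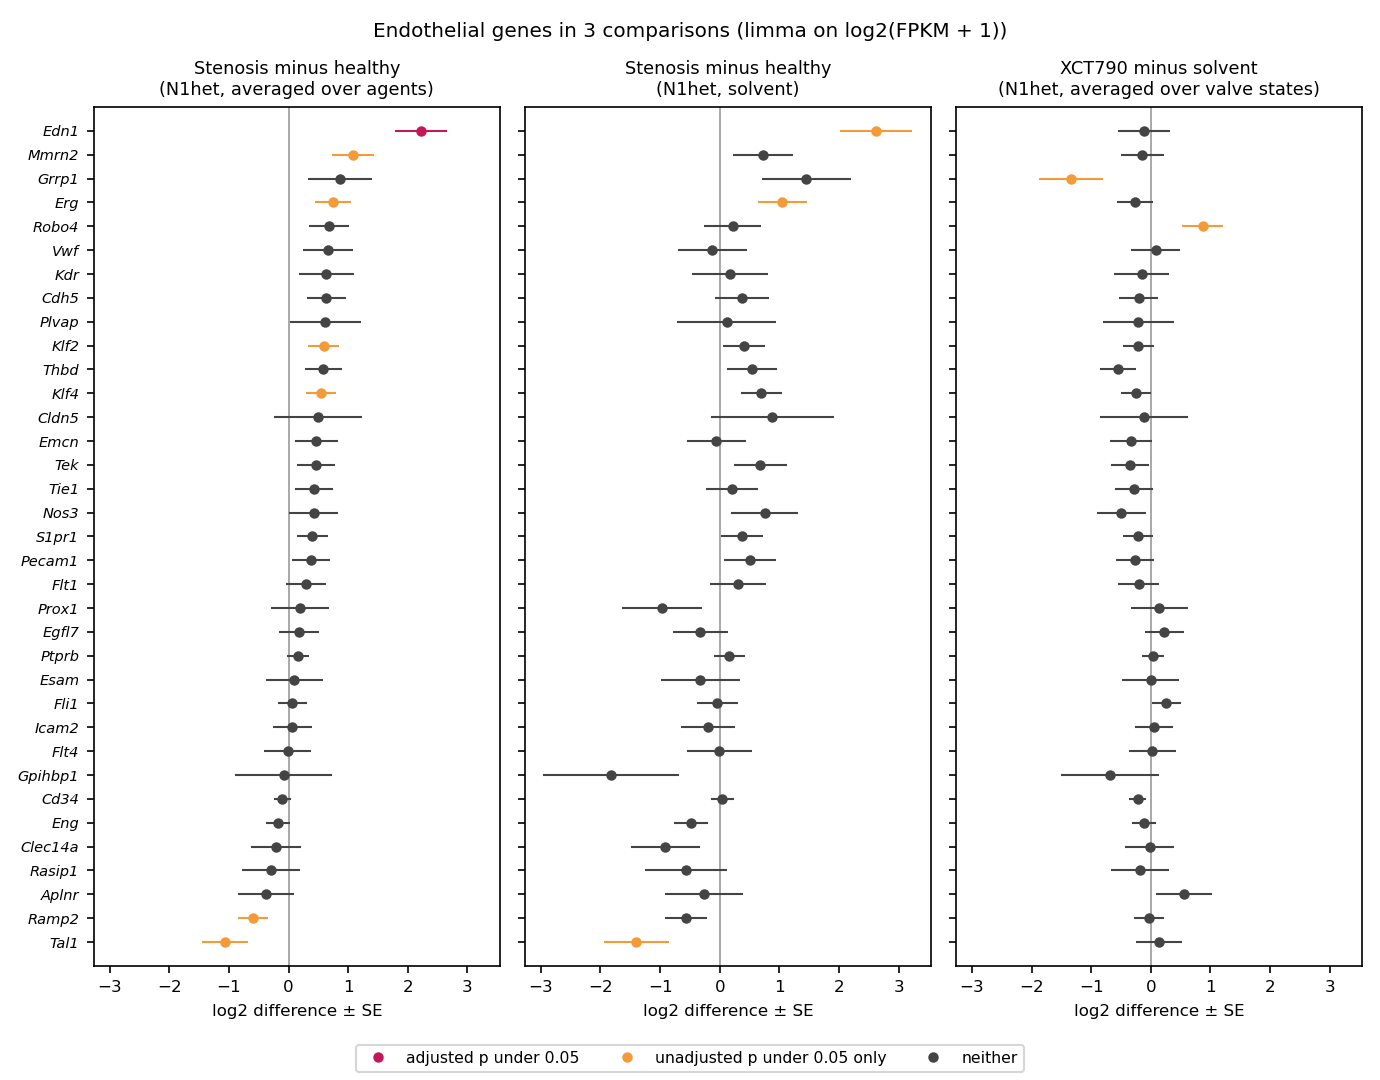
Log2 differences with SE of the 35 endothelial genes for stenosis minus healthy averaged over agents, stenosis minus healthy after solvent, and XCT790 minus solvent averaged over valve states, all in N1het valves (limma on log2(FPKM + 1)), coloured by adjusted and unadjusted p. Edn1 in the first panel, at 2.22, is the only gene with an adjusted p under 0.05.

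Ligands that act on the receptors of the group were compared as well, and which cells made them cannot be told from whole valves. Of 11 ligands tested, 1 was called between stenotic and healthy N1het valves, where 0.374% of all genes were called. Angpt1, the angiopoietin that activates Tek, had 5.12 to 5.89 FPKM in N1het stenosis XCT790 and 1.35 to 8.56 in N1het stenosis, against 9.69 to 13.5 in N1het healthy XCT790 and 10.7 to 16.5 in N1het healthy. WT valves had 5.39 to 9.89 FPKM. All 6 stenotic libraries lay below all 11 healthy N1het libraries but not below all WT libraries. Stenotic and healthy N1het valves did not overlap for 0.147% of all genes. Angpt1 fell by 1.14 ± 0.24 on the log2 scale (SE, limma adjusted p = 0.0334). That call was lost when any 1 of 11 libraries was left out, with adjusted p of 0.0503 to 0.0868: N1het stenosis XCT790 1, 2 and 3, N1het stenosis 1 and 3, N1het healthy XCT790 1, 2 and 4 and N1het healthy 1, 2 and 5. Within the 15 libraries outside the deeper class the log2 difference was -1.16 (limma adjusted p = 0.354). Vegfa, the main ligand of Kdr and Flt1 and the most abundant of the list, had 14.8 to 19.2 FPKM in N1het stenosis XCT790 and 6.97 to 21.5 in N1het stenosis, against 17.99 to 51.7 in N1het healthy XCT790 and 16.9 to 58.1 in N1het healthy. Its log2 difference was -1.18 ± 0.28 and did not pass (limma adjusted p = 0.0718). Vegfb, a ligand of Flt1, had 0.15 ± 0.38 (adjusted p = 0.926). Pericytes and interstitial cells are sources of Angpt1. All 5 pericyte markers had a negative log2 difference, of which 2 were called, Rgs5 (-0.89 ± 0.17, limma adjusted p = 0.0198) and Abcc9 (-1.21 ± 0.20, adjusted p = 0.0142). All 10 interstitial and fibroblast markers had a negative one, of which 3 were called, the matrix genes Dcn (-0.64 ± 0.11), Mfap4 (-1.54 ± 0.28) and Lum (-0.60 ± 0.13), with limma adjusted p of 0.0142, 0.0171 and 0.0491. The summed pericyte markers were 191 to 225 FPKM in N1het stenosis XCT790 and 114 to 158 in N1het stenosis, against 279 to 457 in N1het healthy XCT790 and 225 to 352 in N1het healthy. The part of these cells in the difference of Angpt1 was not tested.

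A second list of 26 endothelial genes outside the 35 gave 0 called, with 17 on the higher side and a median log2 difference of 0.48. Gpr116, an adhesion receptor, and Cd93, a lectin-like receptor that binds Mmrn2, were its most abundant members, with log2 differences of 0.63 ± 0.32 and 0.91 ± 0.30 (limma adjusted p = 0.459 and 0.216). None of the tested genes was called among 8 arterial, 4 venous, 7 capillary, 5 lymphatic, 4 valve endothelial and endocardial and 4 activated adhesion genes. Of the activated adhesion genes 2 were on the higher side and 2 on the lower. The most abundant, Vcam1 and Icam1, both receptors for leukocyte integrins, had log2 differences of 0.41 ± 0.22 and -0.08 ± 0.20 (limma adjusted p = 0.486 and 0.922).

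With solvent alone, N1het stenosis against N1het healthy called 0 of the 35 genes, against 0.0334% of all genes, and 3 reached an unadjusted p under 0.05 (Edn1, Tal1 and Erg), against 9.60% of all. The median was 0.16, with 20 higher and 15 lower, against -0.04 over all genes, of which 46.8% were higher. N1het stenosis against WT called 0 of the 35, against 0.0334% of all genes, and Edn1 was the only one with an unadjusted p under 0.05, against 10.4% of all. The median there was 0.06, as over all genes. Prox1, a regulator of lymphatic endothelium that valve endothelium also makes, had 20.1, 20.7 and 12.3 FPKM in N1het stenosis and 38.3, 40.3, 27.0 and 27.8 FPKM in WT. These groups did not overlap, as was so for 8.61% of all genes.

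With XCT790, N1het stenosis XCT790 against N1het healthy XCT790 called 0 of the 35, against 0% of all genes, and 5 reached an unadjusted p under 0.05 (Edn1, Mmrn2, Vwf, Robo4 and Klf2), against 5.08% of all. On the higher side were 29 of the 35, against 53.4% of all genes, and the median was 0.43, against 0.04 over all genes. Edn1, Mmrn2 and Emcn did not overlap between these groups, as was so for 4.03% of all genes. Emcn had 36.7, 25.2 and 27.2 FPKM in N1het stenosis XCT790 and 15.9, 19.8, 15.95, 9.81 and 11.8 FPKM in N1het healthy XCT790. Vwf, the platelet-binding von Willebrand factor, had 51.5, 9.58 and 13.6 FPKM in N1het stenosis XCT790 and 10.0, 10.2, 6.43, 1.34 and 9.44 FPKM in N1het healthy XCT790, with a log2 difference of 1.44 ± 0.60 (limma adjusted p = 0.929). The highest of these Vwf values, in N1het stenosis XCT790 1, was above the other 7. The summed platelet markers in that library were 310 FPKM, the lowest of its group, where the other libraries had 318 and 680 FPKM. Its heart muscle marker level was the highest of its group, 6.13 against 2.90 and 2.21. So was its median deviation of the 35 genes, 0.57 against 0.43 and -0.43. The source of that Vwf value was not tested.

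Loss of a copy of Notch1 was examined in healthy valves. N1het healthy against WT called 0 of the 35, against 0% of all genes. The median log2 difference was -0.01, with 17 higher and 18 lower, against 0.09 over all genes, of which 57.6% were higher. Grrp1 alone reached an unadjusted p under 0.05, against 7.42% of all genes, and 0 of the 35 had groups that did not overlap, against 1.16% of all. It had a lowest value of 0.0420, a median of 1.03 and a highest value of 14.1 FPKM in N1het healthy, against 28.9, 14.5, 8.08 and 21.4 FPKM in WT. N1het healthy 6 overlapped the WT range and the other 5 N1het libraries lay below it. The log2 difference of Grrp1 was -2.69 ± 0.68 (SE, limma adjusted p = 0.409), or -1.92 when the 6 deeper libraries were left out. In the remaining groups Grrp1 had 5.90, 0 and 0.0802 FPKM in N1het stenosis XCT790, 9.65, 4.16 and 6.57 FPKM in N1het stenosis and 0 to 2.56 FPKM in N1het healthy XCT790.

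XCT790 was compared with solvent in healthy and in stenotic N1het valves and averaged over both. In each of these comparisons 0 of the 35 genes were called, against 0% of all genes. In healthy valves 27 of the 35 were on the lower side with XCT790, where 54.0% of all genes were on the higher side. The median was -0.24, against 0.03 over all genes, and its standard deviation between libraries within groups was 0.49. Gpihbp1 alone reached an unadjusted p under 0.05, against 2.65% of all genes, and 0 of the 35 had groups that did not overlap, against 0.267% of all. It had 0, 0.617, 0.0920, 0 and 4.47 FPKM in N1het healthy XCT790 and a lowest value of 1.57, a median of 6.52 and a highest value of 30.2 FPKM in N1het healthy. The groups overlapped through N1het healthy XCT790 5, and the log2 difference was -2.43 ± 0.97 (limma adjusted p = 1.00). With the groups taken from the contradicting label field it was -0.92.

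In stenotic valves the median with XCT790 was 0.05, against 0.09 over all genes, and 2 of the 35 reached an unadjusted p under 0.05, against 3.35% of all. Robo4 had 16.1, 3.81 and 11.6 FPKM in N1het stenosis XCT790 and 2.11, 5.55 and 2.20 FPKM in N1het stenosis, which overlap, with a log2 difference of 1.33 ± 0.55 (limma adjusted p = 1.00). Grrp1 had a log2 difference of -1.93 ± 0.86 (adjusted p = 1.00). Cd34 did not overlap, with 152.2, 159.8 and 133.4 FPKM in N1het stenosis XCT790 and 218.3, 175.5 and 182.6 FPKM in N1het stenosis, as was so for 8.75% of all genes, and its log2 difference was -0.37 ± 0.23. Averaged over valve states the median was -0.15, against 0.06 over all genes, and Robo4 and Grrp1 were the 2 with an unadjusted p under 0.05, against 3.22% of all, with log2 differences of 0.87 ± 0.34 and -1.34 ± 0.54.

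Whether XCT790 acted differently in stenotic and healthy valves was tested as an interaction, which called 0 of the 35, against 0% of all genes. Prox1 and Gpihbp1 had an unadjusted p under 0.05, against 2.98% of all genes. Prox1 had 62.4, 75.7 and 17.8 FPKM in N1het stenosis XCT790 and 20.1, 20.7 and 12.3 FPKM in N1het stenosis, and 12.5, 18.1, 20.1, 12.4 and 22.1 FPKM in N1het healthy XCT790 against a lowest value of 2.91, a median of 42.0 and a highest value of 126.0 FPKM in N1het healthy. The libraries overlapped in both pairs, and the interaction was 2.32 ± 0.96 on the log2 scale (limma adjusted p = 1.00).

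The amount of heart muscle in a dissected valve varied within every group, so each gene was also fitted against the mean log2 level of the heart muscle markers with the groups in the model. None of the 35 was called, against 1.00% of all genes, and 7 reached an unadjusted p under 0.05, against 8.85% of all. Gpihbp1, which in mice is made by capillary endothelium of heart and other tissues that take up fat, had the largest slope, 0.51 ± 0.14 per log2 unit of muscle level (limma adjusted p = 0.102). Robo4 (0.18 ± 0.06), Kdr, the main VEGF receptor (0.21 ± 0.09), Cldn5 (0.33 ± 0.14), Egfl7, a secreted matrix protein (0.14 ± 0.06), and Aplnr (0.20 ± 0.09) had positive slopes too, and Ptprb a negative one (-0.08 ± 0.04). Genes of other lists were called in this fit. The slope was 0.97 ± 0.16 for the capillary gene Fabp4 (limma adjusted p = 0.0017). It was 0.60 ± 0.14 and 0.50 ± 0.12 for the lymphatic genes Mmrn1 and Ccl21a (adjusted p = 0.0435 and 0.0456). The smooth muscle marker Lmod1 (0.45 ± 0.10) and the red cell marker Alas2 (0.44 ± 0.10) were called too (adjusted p = 0.022 and 0.026). With the muscle level in the model, Edn1 kept a log2 difference between valve states of 2.25 (limma adjusted p = 0.0157).

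The authors' deposited table marks changed genes in 5 comparisons without naming a test. In the authors' deposited table Edn1 is marked for N1het stenosis against WT, where 1.35% of all genes are marked. The authors' deposited table marks none of the other 34 genes there and none of the 35 in the other 4 comparisons, where 0.125% to 1.26% of all genes are marked.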

How the data were processed

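Valve RNA was prepared with a Qiagen RNeasy Micro column and libraries with a NuGEN Ovation amplification system, per the labels' protocols. Genome build mm9 and the tools HISAT2, SAMtools, Picard and FastQC come from the submitters' processing notes. Not given in the sources used here are their versions, the counter, the annotation and the use of strand. The authors deposited FPKM of 20872 genes in 21 libraries, per the file headers, together with their group means, which were used only for a check, and their marks (0 or 1, a score of change per comparison), which the authors deposited without naming the test. Groups follow the titles.

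Because the deposited unit is FPKM, limma 3.58.1 (R 4.3.3, statmod 1.5.0) was run on log2(FPKM + 1), with trend and robust variances, on 14966 genes whose mean FPKM was at least 1; 5906 were left out. Fold changes of low genes are understated on this scale. A model of 5 group means over all 21 libraries gave 9 contrasts, each adjusted by Benjamini and Hochberg over all 14966 genes, with a threshold of 0.05. The heart muscle slope was fitted by adding the muscle level to that model. Whole reads were recovered from the FPKM steps, and 100.0% of nonzero values came out whole within 0.01. They gave 8.42 to 27.3 megareads per library and served the limma voom alternative. The limma fit on log2 values was tested on simulated data, which covered neither the recovery of reads nor voom. Correlations used Python 3.11.15 (scipy 1.17.1).

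The members and the marker and ligand lists were chosen with earlier results of these data known. All 35 members may be named. From other lists, called genes were named and, for the endothelial and ligand lists, the 2 with the highest mean FPKM. Heart muscle markers called for the muscle slope are not named, because they make up that level. The naming rule also asked for the 2 most abundant genes of the other cell types' lists, which are not named here. Notch1 is the gene the genotype label names. Alternatives covered the pseudocount, filters, scaling, the compared groups alone, covariates, depth, a replicate block, the contradicting label field, voom and each library left out. Descriptions of gene function are general background.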

Additional observations from a re-analysis of the deposited data

Results flagged for a closer look

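A library that stood apart from the rest of its group was looked for in each of the 3 groups of 4 or more libraries for each of the 35 genes, which makes 105 groups of values. Chance flags about 1 in 20 of such groups if values are normal, and 8 were flagged. FPKM need not be normal and many of these genes vary together, so the rate by chance is not known here. N1het healthy XCT790 4, among the lowest libraries for endothelial genes as a whole, was lowest for Klf2 (27.2 FPKM, the others 61.3 to 83.3), Vwf (1.34 FPKM, the others 6.43 to 10.2) and Nos3 (9.66 FPKM, the others 45.7 to 53.3). N1het healthy 4, the lowest library of all, was lowest for Tie1, a partner of Tek (8.92 FPKM, the others 13.4 to 17.0), and Prox1 (2.91 FPKM, the others 38.8 to 126.0). N1het healthy 3 was highest for Aplnr (3.85 FPKM, the others 0 to 0.726). N1het healthy XCT790 5 was highest for Gpihbp1 (4.47 FPKM, the others 0 to 0.617). WT 3 was highest for Esam, an adhesion molecule of endothelial junctions (34.7 FPKM, the others 19.8 to 21.4).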

How the results depend on the processing

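Alternatives were compared for 10 counts of called members, 9 medians of the members and 32 differences or slopes of named genes. Of 341 recomputed counts of called members 331 were unchanged. Only 1 of the 10 counts was above 0 in the main fits, so unchanged mostly means 0 called again. All 309 medians of the members moved by less than 0.49 on the log2 scale, their standard deviation between libraries. Each median was itself below 0.49 in size, so a change to 0 would have counted as well. This measure therefore cannot show that the medians are stable. Of 1072 recomputed values of named genes, Angpt1 included, 1048 kept their direction and their side of the threshold, and no called value changed sign. Most of these values were not called in the main fits either. The 21 values that lost a call were all of Edn1 or Angpt1, the only named genes called in the main fits. For stenosis against healthy averaged over agents, the count of called members was 1 and became 0 with a pseudocount of 0.1, within the 15 libraries outside the deeper class and with the macrophage level as a covariate. With single libraries left out it ran from 0 to 1. Edn1 then had log2 differences of 2.86 (limma adjusted p = 0.0964), 1.77 (0.354) and 1.80 (0.742) under the first 3 settings. Over all alternatives its adjusted p was between 0.0137 and 0.742. The whole table gave 56 called genes in this comparison, 0 within the 15 libraries and with the macrophage level, 97 with the replicate block and 85 with voom on the recovered reads. For the heart muscle slope the count of called members was 0 and ran from 0 to 1 with single libraries left out. Gpihbp1 was called without WT 3 (adjusted p = 0.031) or N1het healthy 2 (0.0307), and Egfl7 without N1het stenosis 1 (0.0497). The cause was not tested. Angpt1 was lost from the calls with the replicate block (-1.14, adjusted p = 0.0857), within the 15 libraries (-1.16, 0.354) and with the macrophage level (-1.20, 0.532). Voom called Edn1 in the averaged comparison and 0 members in the other comparisons.

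No pairing of libraries by replicate number was evident: of 34 pairs with the same number 3 had correlated deviations above 0.1, with a median of 0.01, and 3 of 21 libraries correlated best with their own number. Deviations were taken from means of groups as small as 3, so a pairing is not excluded, and the labels do not say what the numbers mean. With the replicate block the count of called members was 1 and Edn1 had 2.39 (limma adjusted p = 0.0436). For stenosis against healthy after solvent the block gave 19 called genes in the whole table, against 5 without it.

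With the groups taken from the contradicting label field, the stenosis comparison averaged over agents could not be formed. The calls of Edn1 and Angpt1 in it were therefore not checked under that field. The XCT790 comparisons in healthy valves still called 0 members.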

Other observations

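Genes that mark single vessel types were measured beside the 35, and the 2 most abundant of each list are given here. The libraries also held heart muscle, and which tissue these levels come from was not tested. The genes were compared between stenotic and healthy N1het valves, averaged over agents (limma, Benjamini-Hochberg over all genes), and those named here did not pass. Among arterial genes, Efnb2, a ligand of Eph receptors, averaged 39.2 FPKM over the 21 libraries with a log2 difference of 0.53 ± 0.40 between the valve states (adjusted p = 0.671), and Gja4, a gap junction connexin, averaged 37.6 FPKM with -0.04 ± 0.34 (adjusted p = 0.985). Among venous genes, Ephb4, the receptor of Efnb2, averaged 21.8 FPKM with -0.18 ± 0.23 (adjusted p = 0.837), and Selp, an adhesion receptor also made by platelets, averaged 14.4 FPKM with 0.15 ± 0.40 (adjusted p = 0.929).

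Among capillary genes, the water channel Aqp1 averaged 148.1 FPKM with a log2 difference of -0.04 ± 0.33 (limma adjusted p = 0.981), and Fabp4, a fatty acid binding protein that fat cells also make, averaged 59.9 FPKM with 0.49 ± 1.33 (adjusted p = 0.932). Among lymphatic genes, Lyve1, a hyaluronan receptor that some macrophages also make, averaged 22.8 FPKM with -0.32 ± 0.66 (adjusted p = 0.904), and Pdpn, which fibroblasts also make, averaged 21.6 FPKM with 0.13 ± 0.27 (adjusted p = 0.902). Per log2 unit of heart muscle level, the slope was 0.97 ± 0.16 for Fabp4 and 0.39 ± 0.11 for Lyve1 (limma adjusted p = 0.0017 and 0.154). It was 0.02 ± 0.07 for Aqp1 and 0.02 ± 0.06 for Pdpn. Among valve endothelial and endocardial genes, Hapln1, a matrix link protein, averaged 49.6 FPKM with -0.75 ± 0.28 (adjusted p = 0.283), and the transcription factor Nfatc1 averaged 40.6 FPKM with 0.05 ± 0.23 (adjusted p = 0.967).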
